A study of Mus musculus with 14 samples.

Results

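Sorted cortical astrocytes were set against undissociated cortex to show which transcripts were gained and which were lost when astrocytes were taken out of neuron-rich tissue. All 6 astrocyte libraries and all 4 bulk tissue libraries of the series entered the comparison, 10 of its 14 libraries, and 20207 autosomal genes of 21657 genes tested were counted. Sex-linked genes were left out of the counts. All libraries came from mice of the SW strain. The astrocytes came from animals 14 days old that carried the Aldh1l1-GFP reporter; the labels give neither age nor genotype for bulk tissue separately. The transgene makes green fluorescent protein under the regulatory sequence of Aldh1l1, a folate enzyme gene of astrocytes. Upper and deep layers of the cortex were separated by hand. The 4 groups were upper layer astrocytes (n = 3), deep layer astrocytes (n = 3), upper layer bulk tissue (n = 2) and deep layer bulk tissue (n = 2). Astrocytes were the GFP-positive cells of papain-dissociated cortex, sorted with dead cells excluded by DAPI, while the RNA of bulk tissue was taken from whole cortical layers. Fraction, dissociation and sorting therefore cannot be told apart here. One field of the labels calls the upper layer astrocytes bulk tissue, and the titles, which call them astrocytes, were followed. The labels do not say which libraries came from separate animals, so p-values measure the spread between these libraries, which may be technical.

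Astrocytes are the star-shaped glia of the brain. They clear transmitter from synapses, buffer potassium, couple to one another through gap junctions, wrap blood vessels with endfeet and supply cholesterol and metabolites to neurons. Bulk cortex holds neurons, astrocytes, oligodendrocytes, microglia and vessel cells together, so a bulk value is a mixture that includes astrocytes. A lower value in bulk RNA can come from fewer cells of a type or from less RNA per cell, and these cannot be told apart.

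Expression is given as normalised read counts, the authors' counts per gene divided by 1 size factor per library. Gene-assigned reads numbered between 18226457 and 30316765 in each of the 14 libraries. The second deep layer astrocyte library stood apart, with 16.0% of its reads from mitochondrially encoded genes against 5.70% to 6.12% in the other 5 astrocyte libraries. The first bulk library of each layer held almost no transcripts of the Y-linked gene Eif2s3y, and the second bulk libraries held 615.3 and 658.1 normalised counts of it. The predicted gene Gm42418 took 10.1% to 16.3% of the reads of each bulk library. It took 4.66% to 4.81% of the reads of each upper layer astrocyte library.

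Most genes differed between sorted astrocytes and bulk cortex, and the widest losses were larger than the widest gains. Bulk values include astrocyte RNA, which limits the size of a gain. The value of 1 added before taking log2 limits the size of a loss at genes with few reads. The part of either in these widths was not tested. Of the 20207 autosomal genes tested, 13664 passed an adjusted p below 0.05 (67.6%) in limma with layer as a term. Of these, 6211 were higher in astrocytes (30.7%) and 7453 lower (36.9%). Of them, 3584 genes were higher and 5219 lower by 2-fold or more, 247 higher and 1805 lower by 10-fold or more, and 17 higher and 894 lower by 32-fold or more. The counts depended on how genes were filtered. With a value of 10 required in at least 6 libraries, 5856 of 17361 genes were higher and 5847 lower. The 6 astrocyte libraries can meet that filter alone and the 4 bulk libraries cannot. It therefore removes genes found only in bulk tissue, and the shift in counts follows in part from the filter. Among 4544 genes of mean log2 CPM 5 or more, 1877 were higher and 1654 lower, with 0 higher and 53 lower by 32-fold or more. The median log2 difference over all autosomal genes was -0.07, the 5th percentile -4.69 and the 95th percentile 2.27. Astrocyte and bulk libraries did not overlap at 11181 genes (55.3%), of which 4952 were higher in every astrocyte library and 6229 lower. Counts of called genes in a list are read against these percentages.

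**Figure D1:**
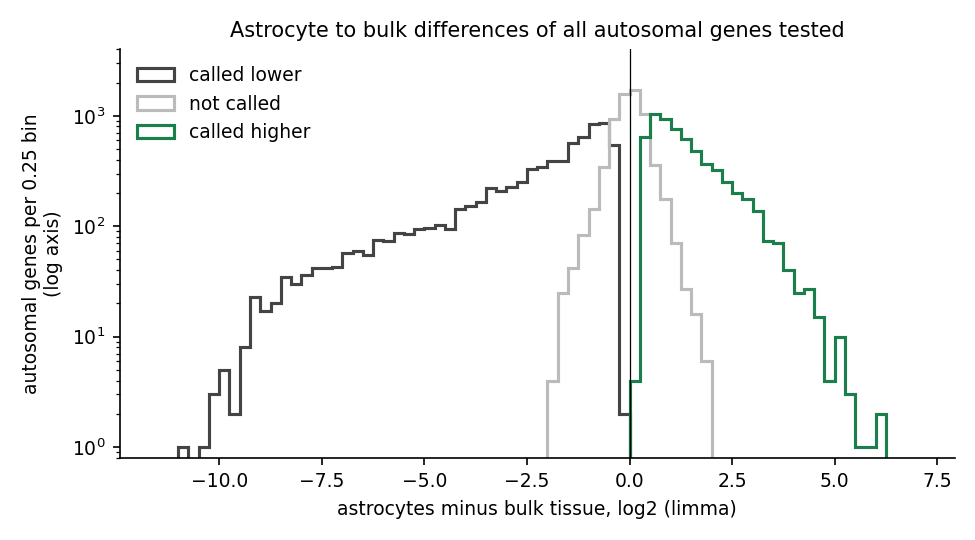
Number of autosomal genes (log axis) per 0.25 bin of the log2 difference between 6 astrocyte and 4 bulk libraries (limma), drawn separately for genes called higher, called lower and not called. The lower tail reaches past -10 while the higher tail ends near 6, and 894 genes are lower by 32-fold or more against 17 higher.

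Genes known from astrocytes were higher in all 6 astrocyte libraries. F3, which encodes tissue factor, the trigger of blood coagulation, was 10467, 13035 and 20811 at its lowest, median and highest in astrocytes. In bulk tissue it was 611 and 519.9 (upper) and 545 and 510.0 (deep). Hif3a, a hypoxia-responsive transcription factor, was 5979, 9134 and 13266 in astrocytes and 316 to 501 in bulk tissue. The 2 sets of libraries lay far apart for both genes, and the second deep layer astrocyte library was the highest for F3 but not for Hif3a. The log2 differences were 4.63 ± 0.17 (SE, adjusted p = 1.3e-10) for F3 and 4.38 ± 0.20 (adjusted p = 6.8e-10) for Hif3a. Il18, an inflammasome cytokine, was 3904, 4344 and 5067 in astrocytes and 195 to 268 in bulk tissue. The water channel gene Aqp4 was 24082, 29906 and 39014 against 2055 and 1906 (upper) and 2070.1 and 1739.6 (deep), a 15.6-fold difference (log2 3.97 ± 0.15). No astrocyte library overlapped a bulk library at these 4 genes. Aldh1l1, whose regulatory sequence drives the reporter, was 2559, 3865 and 4516 in astrocytes and 681 to 1116 in bulk tissue (log2 2.00 ± 0.18, adjusted p = 5.1e-07). Its exons overlap another gene, so its value is uncertain.

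The neuronal markers were the reverse. By GRCm38 coordinates, Slc17a7 lies at chr7:45163949-45176142 and Syt1 at chr10:108497650-109010982, and of the astrocyte genes F3 lies at chr3:121723537-121735048, Hif3a at chr7:17031507-17062427 and Il18 at chr9:50554827-50581840. Slc17a7, the vesicular glutamate transporter of cortical excitatory neurons, was 15.3, 5.45 and 24.2 (upper layers) and 18.9, 1.42 and 13.7 (deep layers) in astrocytes. In bulk tissue it was 13554 and 15303 (upper) and 17035 and 19151 (deep). The astrocyte mean was 0.081% of the bulk mean, and the lowest astrocyte value, 1.42, is the value of 1 read in that library. Syt1, the calcium sensor of vesicle release, was 59.2, 46.9 and 54 (upper layers) and 56.7, 34 and 32.8 (deep layers) in astrocytes. Bulk tissue held 22724 and 25468 (upper) and 26075 and 28834 (deep). Every astrocyte library was under every bulk library, and Syt1 fell by 9.09 ± 0.18 on the log2 scale (adjusted p = 1.2e-12).

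**Figure D2:**
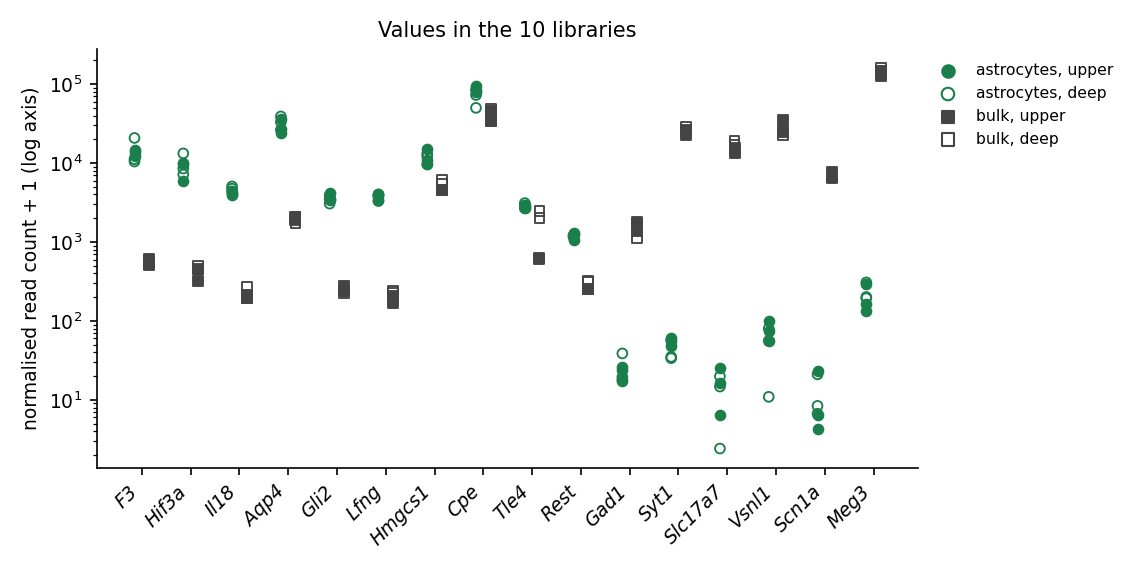
Normalised read count plus 1 (log axis) of 16 genes in each of the 10 libraries, circles for astrocytes and squares for bulk tissue, filled for upper and open for deep layers. F3 to Lfng sit over 10-fold higher in every astrocyte library, Syt1, Slc17a7, Vsnl1, Scn1a and Meg3 over 100-fold lower, and Tle4 splits the bulk libraries by layer.

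Beyond the markers above, the genes of mean log2 CPM 5 or more with the widest gains came from several families. Atp13a4, a P-type transport ATPase gene, was 7708 to 12682 in astrocytes and 415 to 483 in bulk tissue (log2 4.46 ± 0.14). Megf10, an engulfment receptor, was 6299 to 10204 against 358 to 465 (log2 4.31 ± 0.14). Lfng, a glycosyltransferase that modifies Notch, was 3305 to 4098 against 166 to 238 (log2 4.17 ± 0.12). Cell surface and matrix genes also ranked high. Vcam1, an adhesion molecule, was 17.6-fold higher and Hapln1, which links hyaluronan to proteoglycans, 16.3-fold higher. The second deep layer astrocyte library held 40841 of Hapln1, the highest of the 6 (12525 to 21796 in the others). The solute carriers Slc39a12 (zinc, 15.1-fold), Slc7a2 (cationic amino acids, 14.4-fold) and Slc14a1 (urea, 14-fold) and the chromatin reader gene Cecr2 (14.5-fold) were of like size. Tlr3, a receptor for double-stranded RNA, was 20.3-fold higher. Among the 20 genes named by this rule only Tnfaip8 (15.9-fold) shares exons with another gene to 10% or more, and its value is uncertain.

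Meg3 and Vsnl1 were among the widest losses at the same level. The long non-coding RNA Meg3, from the imprinted cluster on chromosome 12, was 132, 197 and 307 in astrocytes and 127025 to 158985 in bulk tissue, 0.15% of the bulk mean (log2 -9.43 ± 0.20). Rian and Mirg, non-coding RNAs of the same cluster, were chosen after their values were seen. Rian had a log2 difference of -6.45 ± 0.11 and Mirg one of -9.33 ± 0.52. All 3 were lower. Vsnl1, a neuronal calcium sensor, was 9.93, 64.7 and 99.2 against 22554 to 35357 (0.23% of bulk). The axon initial segment scaffold Ank3 was at 0.456% of bulk, the microtubule protein gene Map1b at 0.534%, the adenylyl cyclase gene Adcy1 at 0.625% and the kinesin gene Kif5a at 0.672%. Next came the phosphatase subunit Ppp2r2c (0.671%), the pentraxin receptor Nptxr (0.692%, uncertain because of exon overlap), the Nogo receptor partner Lingo1 (0.882%), the G protein regulator Rgs4 (0.897%), the amino acid transporter Slc6a17 (1.01%), the non-coding RNA Snhg11 (1.06%) and the trafficking GTPase Rab6b (1.11%).

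Gene lists were described by how many members were called in each direction and by their median log2 difference, beside the 30.7% higher, 36.9% lower and median of -0.07 over all autosomal genes. All 20 astrocyte markers were higher, with a median of 2.71. Their summed level in each astrocyte library was 469% to 680.3% of the bulk mean. Of 24 transcription factors of astrocytes and radial glia, 22 were higher and 1 lower (median 2.25). Gli2, an effector of Hedgehog signalling, was 3065, 3516 and 4134 in astrocytes and 223 to 278 in bulk tissue (log2 3.87 ± 0.11). Its relative Gli3 was 7958 to 10997 against 632 to 785 (log2 3.65 ± 0.12). Rfx4 and Sox21 followed with log2 differences of 3.15 and 2.89, the latter uncertain because of exon overlap. Nfix went against the list. Nfix, a nuclear factor I gene, was 2329 to 4140.2 in astrocytes and 9137 to 13109 in bulk tissue, without overlap (log2 -1.78 ± 0.16, adjusted p = 4.5e-07), while its relatives Nfia and Nfib had log2 differences of 1.93 and 1.34 and were called higher. Id1, an inhibitor of DNA binding, was not called (log2 -0.46 ± 0.21), whereas Id2, Id3 and Id4 were called higher at 1.69, 2.44 and 2.79.

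**Figure D3:**
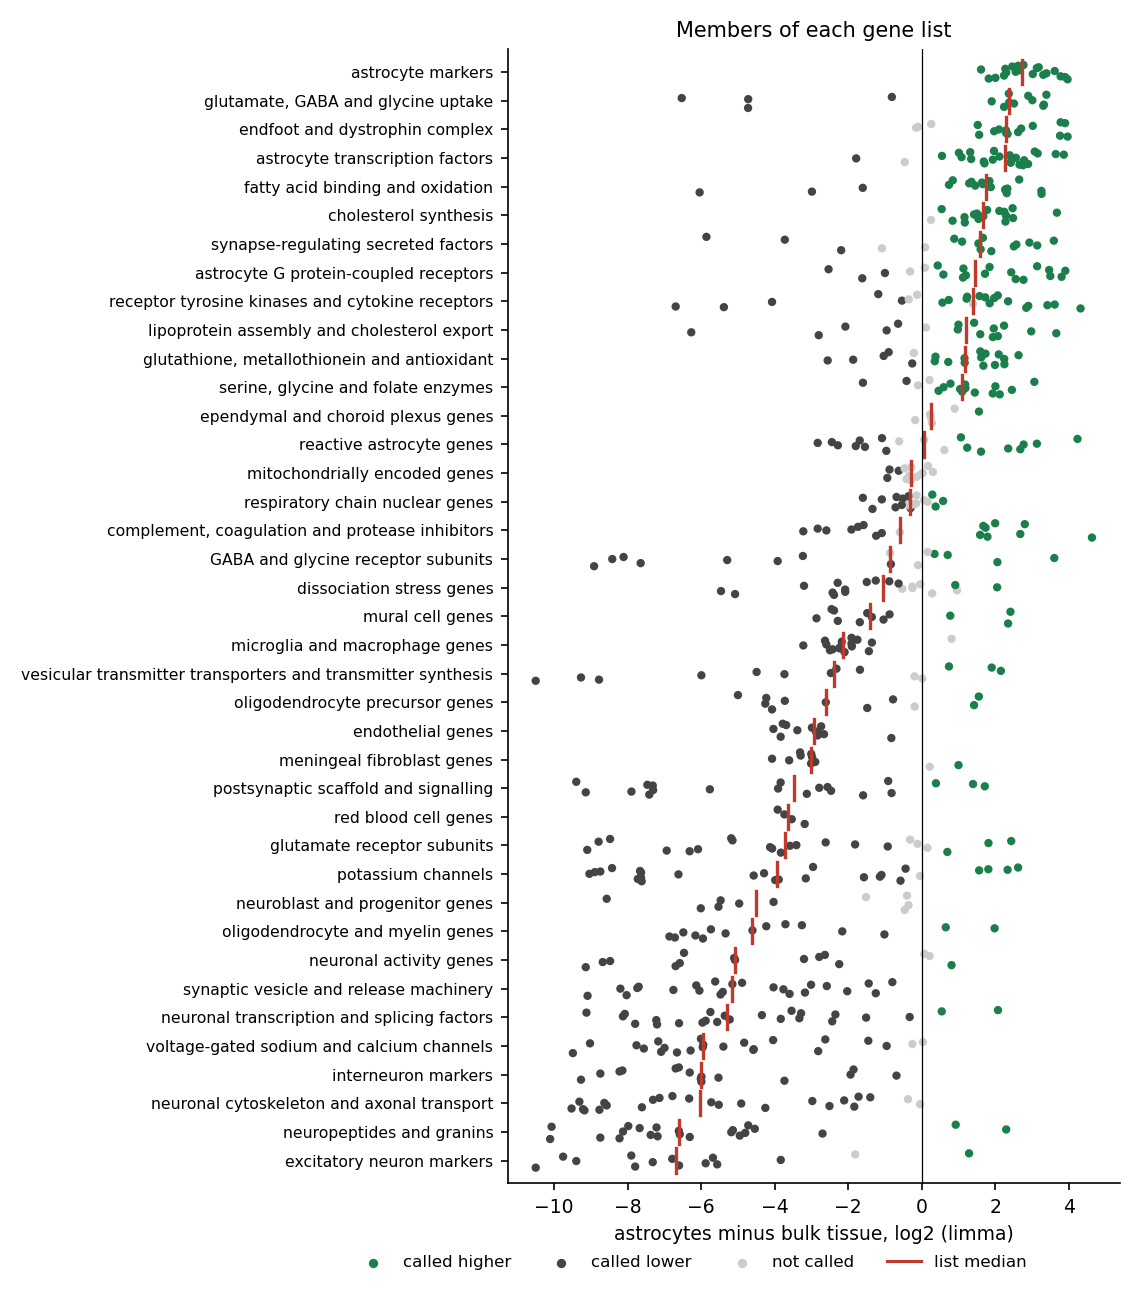
Log2 difference between astrocytes and bulk tissue (limma) for every tested member of the 39 gene lists, 1 row per list ordered by its median (red bar), with points coloured by call. Astrocyte, uptake, endfoot and lipid lists have medians right of 0, and neuronal lists have medians down to -6.70 with single members on the right.

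Growth factor and cytokine receptors differed in both directions, also within families. Of 23, 15 were higher and 5 lower (median 1.40). Egfr, the receptor of epidermal growth factor, was 17993, 21907 and 40042 in astrocytes and 961 to 1365 in bulk tissue (log2 4.32 ± 0.21). Erbb2, a partner of that receptor, was higher as well (log2 2.84). The neuregulin receptors of the same family were lower: Erbb4 was 7.63 to 36.9 in astrocytes and 1651 to 2235 in bulk tissue, and Erbb3 1.09 to 14.3 against 132 to 410.0. The family was thus split, with log2 differences of -6.70 ± 0.28 for Erbb4 and -5.38 ± 0.52 for Erbb3. The fibroblast growth factor receptors Fgfr1, Fgfr2 and Fgfr3 were higher by 2.90, 3.42 and 3.62 on the log2 scale (Fgfr3 uncertain because of exon overlap), and Fgfr4, at 1.42 to 40.3 in astrocytes, was not called. Pdgfra and Pdgfrb, the platelet-derived growth factor receptors, also parted. Pdgfra, which marks oligodendrocyte precursors and fibroblasts, was 10.9 to 130.1 in astrocytes and 587 to 1158 in bulk tissue. Pdgfrb, best known from pericytes, was 1786 to 3089.9 against 421 to 562 (log2 2.35 ± 0.16), and 5920.4 to 9556 in the GFP-negative cells. Tgfbr2 was lower (log2 -1.18 ± 0.16) and so was Igf1r (log2 -0.54 ± 0.12, adjusted p = 0.00191).

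Of 20 G protein-coupled receptors listed for astrocytes, 15 were higher and 3 lower (median 1.46). Ednrb, an endothelin receptor, was 17795, 22157 and 40486 in astrocytes and 1447 to 1725 in bulk tissue (log2 3.91 ± 0.19). S1pr1, a sphingosine 1-phosphate receptor, was 34951 to 58718 against 3944 to 4446 (log2 3.47 ± 0.13). Adenosine receptors went both ways. Adora2b was 1361 to 2172 in astrocytes and 95.2 to 181 in bulk tissue (log2 3.81 ± 0.19), and Adora1, uncertain because of exon overlap, 1759 to 2003 against 5235 to 6218 (log2 -1.62 ± 0.10). The beta-adrenergic receptor gene Adrb1 and the lysophosphatidic acid receptor gene Lpar1 were lower, Lpar1 at -2.53 on the log2 scale and Adrb1 at 316 to 524 in astrocytes against 508 to 1049 in bulk tissue.

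Most transmitter uptake genes were higher in astrocytes. Of 14 autosomal uptake genes, 10 were higher and 4 lower (median 2.37), and all 14 had libraries that did not overlap. Slc1a3, the glutamate transporter GLAST, was 98787, 147931 and 169153 in astrocytes and 12488 to 15645 in bulk tissue (log2 3.31 ± 0.12). Slc1a2, the glutamate transporter GLT-1, was 706072 to 1089589 against 158352 to 193281, a 4.72-fold difference. Slc1a4, a neutral amino acid and serine transporter, was higher by 3.32 ± 0.15. Slc6a11, a GABA transporter of astrocytes, was higher by 3.01 ± 0.17. The 4 lower members were Slc1a1, the neuronal glutamate transporter (log2 -4.73, uncertain because of exon overlap), the taurine transporter gene Slc6a6 (-4.72) and the glutamine carriers Slc38a1 (-6.53) and Slc38a2 (-0.81). Slc38a1 was 15.6 to 86.9 in astrocytes and 3162 to 4733 in bulk tissue, while the glial glutamine carrier Slc38a3 was 8160.2 to 17995 against 1385 to 1848 (log2 2.90).

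Of 17 genes of the endfoot and the dystrophin complex, 14 were higher and 0 lower (median 2.30). Gja1 and Gjb6, the gap junction connexins 43 and 30, were 14.9-fold and 13.7-fold higher. Dtna, a dystrobrevin that anchors the complex, was 20187 to 26510.2 in astrocytes and 4521 to 4999 in bulk tissue (log2 2.29 ± 0.10). Slc4a4, a sodium bicarbonate cotransporter, was 71780.2 to 106657 against 9985 to 11105. Utrn, Agrn and the lactate transporter gene Slc16a1 were not called, with log2 differences of -0.15, -0.10 and 0.26.

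Sterol genes were higher almost throughout. Of 17 genes of cholesterol synthesis and uptake, 16 were higher and 0 lower (median 1.68). Msmo1, a sterol methyl oxidase, was 14308, 18657 and 24451 in astrocytes and 1546 and 1171 (upper) and 1621 and 1538 (deep) in bulk tissue, without overlap (log2 3.68 ± 0.15, adjusted p = 3.5e-10). Sqle and Hsd17b7 were higher by 2.29 and 2.24. Pmvk, a mevalonate pathway kinase, was not called (0.25 ± 0.23).

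Genes of lipoprotein assembly and cholesterol export were mixed, with 10 of 16 higher and 5 lower (median 1.21). Abca1 and Abcg1, cholesterol exporters, went opposite ways: Abca1 was 10466 to 15745 in astrocytes and 910.0 to 1189.8 in bulk tissue (log2 3.66 ± 0.14). Abcg1 was 1.09 to 17.2 against 587 to 675 (log2 -6.27 ± 0.54). The endosomal cholesterol transporter gene Npc1 was higher by 2.24, Lcat, which esterifies cholesterol, by 2.98 and the receptor gene Lrp4 by 1.96. Apod (-2.80), Pltp (-2.08, uncertain because of exon overlap), the lipase gene Lpl (-0.96) and the nuclear receptor gene Nr1h2 (-0.64) were lower. Of 20 autosomal genes of fatty acid binding and oxidation, 17 were higher and 3 lower (median 1.74). Fabp7, the brain lipid binding protein, was 13575 to 26883 against 1545 to 2126 and Cpt1a, the gatekeeper of mitochondrial fatty acid import, 3215 to 4960.2 against 735 to 843. The lower members were Fabp3 (-6.04), Acsl1 (-2.99) and the neuronal carnitine acyltransferase gene Cpt1c (-1.61).

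Of 17 enzymes of serine, glycine and folate metabolism, 13 were higher and 2 lower (median 1.10). Cbs, which makes cystathionine, was 5219.8 to 6992 in astrocytes and 590.0 to 839 in bulk tissue (log2 3.06 ± 0.13). The serine synthesis genes Phgdh and Psat1 were higher by 2.12 and 1.93 and the glycine decarboxylase gene Gldc by 2.45. The serine racemase gene Srr was among the lower ones (-0.41 ± 0.15, adjusted p = 0.0233, uncertain because of exon overlap). Of 20 antioxidant genes, 14 were higher and 5 lower (median 1.17). The peroxiredoxin gene Prdx6 was 11734 to 17812 against 3172 to 3551 (log2 2.10), and the peroxidase gene Gpx8 307 to 469 against 66.1 to 112. The glutathione peroxidase genes Gpx1 and Gpx4 were lower instead, at -2.56 and -1.87, as were Gstp1 (-1.04), Sod2 (-0.90) and Gclc (-0.26 ± 0.11, adjusted p = 0.0459).

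Secreted factors split as well. Complement, coagulation and protease inhibitor genes were 8 higher and 8 lower of 17 (median -0.60). The 3 chains of complement C1q, which microglia make, were lower, while Timp3 (2.80, uncertain because of exon overlap), Timp4 (2.00) and Serpine2 (1.59) were higher. Of 16 autosomal secreted and matrix factors that act on synapses, 11 were higher and 3 lower (median 1.57). Sparcl1, which promotes synapse formation, was 161985 to 240768 against 33047 to 36349 (log2 2.50 ± 0.13). The glypican gene Gpc5 and the proteoglycan gene Bcan were higher by 3.14 and 2.93. Olfm1 (-5.86), Tnr (-3.73), a matrix protein of oligodendrocyte lineage cells and neurons, and Thbs2 (-2.19) were lower.

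The release apparatus of neurons was lower in astrocytes. All 23 autosomal genes of the vesicle and release machinery were called lower and did not overlap between fractions (median -5.15). Their summed level was 4.56% to 6.5% of the bulk mean in astrocytes and 6.35% to 8.82% in the GFP-negative cells. Snap25, a SNARE protein of the plasma membrane, was 157, 216 and 263 in astrocytes and 47962 and 73011 (upper) and 51192 and 52870.3 (deep) in bulk tissue, 0.381% of the bulk mean (log2 -8.03 ± 0.16). Sv2b, a vesicle glycoprotein, was 102 to 211 against 13363 to 19601, and the complexin gene Cplx1 39.7 to 72.7 against 8667 to 15746. The active zone scaffold gene Bsn fell by 6.14 ± 0.12. Erc1 had the smallest difference (-0.80 ± 0.12, uncertain because of exon overlap), ahead of Vamp1 (-1.25) and Unc13b (-1.44).

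Of 14 autosomal genes of transmitter loading and synthesis, 9 were lower and 3 higher (median -2.40). Slc17a6 and Slc32a1, the second vesicular glutamate transporter and the vesicular GABA transporter, had no read in any of the 6 astrocyte libraries. Bulk tissue held 199 to 899 of Slc17a6 and 497 to 843 of Slc32a1. Against a floor of 3 reads over the astrocyte group, Slc17a6 was at least 932-fold lower and Slc32a1 at least 1113-fold lower, the latter uncertain because of exon overlap. Gad1 and Gad2, which make GABA, were 16.5 to 37.8 and 171 to 251 in astrocytes against 1114 to 1811 and 2471 to 3498 in bulk tissue, so that Gad2 kept 7.44% of its bulk mean and Gad1 1.54%. The 3 higher genes were Glul, the glutamine synthetase of astrocytes (log2 2.15 ± 0.16), the glutamate dehydrogenase gene Glud1 (1.90) and the pyruvate carboxylase gene Pcx (0.74).

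Most transmitter receptor genes were lower, and a few subunits were higher. Of 22 autosomal glutamate receptor genes, 16 were lower and 3 higher (median -3.71). Grin1, the obligatory NMDA receptor subunit, was 68.3 to 99.2 in astrocytes and 9668 to 10599.6 in bulk tissue, uncertain because of exon overlap. Grin2b was 262 to 613 against 20919 to 42916. Among AMPA receptor genes Gria1 and Gria4 fell by 3.83 and 6.32, whereas Gria2 was 17306, 24214 and 34543 in astrocytes and 13909 to 16603 in bulk tissue (log2 0.70 ± 0.16, adjusted p = 0.00152). The metabotropic receptor gene Grm3 was higher by 2.43 ± 0.14. Of 15 autosomal GABA and glycine receptor genes, 8 were lower and 4 higher (median -0.86). Gabrg1 was 4876 to 12560.1 against 403 to 621 (log2 3.61 ± 0.23). Gabrb1 was higher by 2.06. The GABA-B receptor genes Gabbr1 and Gabbr2 were higher by 0.71 and 0.35, the latter at an adjusted p of 0.0391.

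Of 20 autosomal genes of the postsynaptic scaffold, 17 were lower and 3 higher (median -3.48). Calmodulin kinase II showed the split within 1 family. Camk2a was 332, 689.5 and 1188 in astrocytes and 130725 and 169499 (upper) and 70999 and 80814 (deep) in bulk tissue, 0.635% of the bulk mean, and Camk2b was at 0.563%. Camk2d was 2279 to 3024 in astrocytes and 890.3 to 1114 in bulk tissue (log2 1.39 ± 0.12), and Camk2g was higher by 0.39 ± 0.13. The scaffold genes Dlg2 and Shank1 were at 0.593% and 0.657% of bulk, and Nrgn, a calmodulin-binding protein of dendrites, fell by 9.40. Homer3 was higher (1.72, uncertain because of exon overlap) and Homer1 lower (-2.79).

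Of 23 sodium and calcium channel genes 21 were lower and none higher (median -5.94). Cacna1i, a T-type calcium channel, was 2.36 to 12.1 in astrocytes and 2186 to 3837 in bulk tissue. Cacna1a, the P/Q-type channel of nerve terminals, was 51.1 to 104 against 7997 to 10267. Scn2b, an auxiliary sodium channel subunit, fell by 4.58. Cacna1h and Cacna2d2 were not called (-0.26 and 0.03). Of 26 potassium channel genes, 21 were lower and 4 higher (median -3.94). The higher ones were the inward rectifiers Kcnj10 (29021 to 53477 against 11129 to 14007) and Kcnj16, which buffer potassium in glia, the leak channel Kcnk1 and the calcium-activated channel Kcnn2 (6923 to 8707 against 1025 to 1445). Their log2 differences were 1.56, 2.34, 1.81 and 2.62. The summed level of the potassium channel list was 64.9% to 92.6% of the bulk mean, against 6.42% to 8.09% for the sodium and calcium channels. Of 24 genes of the neuronal cytoskeleton and axonal transport, 22 were lower and none higher (median -6.03). Nefm, a neurofilament subunit, fell by 8.77 (uncertain because of exon overlap) and the kinesin gene Kif5c by 6.33, while its ubiquitous relative Kif5b was not called (-0.37 ± 0.18).

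Secretory peptides gave the lowest median of the functional lists. Of 22 genes of neuropeptides, granins and their processing enzymes, 20 were lower and 2 higher (median -6.60). Vgf, a neuroendocrine secretory protein, was 0, 1.09 and 3.31 (upper layers) and 0, 0 and 0 (deep layers) in astrocytes. Bulk tissue held 1261 to 2039.8. Tac1, which encodes substance P, had no read in any astrocyte library and was at least 267-fold lower against the floor of 3 reads over the group. The higher pair was Scg3, a secretogranin, and Cpe, the peptide-trimming carboxypeptidase. Scg3 was 24733, 38053 and 49707 in astrocytes and 8042 and 6569.9 (upper) and 8363 and 7425 (deep) in bulk tissue (log2 2.30 ± 0.19). Cpe was 50101 to 94564 against 34084 to 49042 (log2 0.92 ± 0.18). The astrocyte and bulk libraries did not overlap at either. The 2 convertase genes that cut the same precursors were lower, Pcsk1 at 0 to 2.18 in astrocytes and 325 to 391 in bulk tissue, and Pcsk2 at 189.6 to 269 against 5805 to 6483.

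Promoters of these genes were searched for 3 short motifs, on either strand, from 250 bases before to 50 after the start (RefSeq, GRCm38.p6, matched for 12677 of the 20207 autosomal genes). A match describes the letters only. The motifs were TTCAGCACC, the left part of the element bound by the repressor REST, TGACGTCA, the cAMP response element, which reads the same on both strands, and TCACCCCAC, the core of a sterol regulatory element. The REST motif stood in 0.513% of all promoters, 0.428% of those of higher genes, 0.617% of those of lower genes and 1.61% (10 of 620) of those of genes lower by 32-fold or more. Among the listed genes called in either direction it stood in Unc13a, a vesicle priming factor, in Grm2, a presynaptic glutamate receptor, and in Scg2, secretogranin II, which are shown because of it. Capitals mark a motif, or its reverse complement where it lies on the other strand, and all stretches read 5′ to 3′ along the gene. They lie at chr8:71671717-71671745, chr9:106656298-106656359 and chr1:79440025-79440139 (all 3 on the minus strand).
Unc13a: ccgcgcccccGGTGCTGAAgcgacatggc
Grm2: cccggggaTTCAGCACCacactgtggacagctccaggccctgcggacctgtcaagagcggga
Scg2: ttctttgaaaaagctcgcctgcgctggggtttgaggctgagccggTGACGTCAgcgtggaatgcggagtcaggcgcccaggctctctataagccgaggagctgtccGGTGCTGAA

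Unc13a was 159 to 351 in astrocytes and 8914 to 11699 in bulk tissue, Grm2 0 to 8.82 against 1014 to 1612, and Scg2 31.7 to 119.9 against 1592 to 2501, so all 3 were lower without overlap. Rest, the gene for the repressor itself, was 1064, 1263 and 1318 (upper layers) and 1153, 1194 and 1208 (deep layers) in astrocytes. Bulk tissue held 255 and 250.4 (upper) and 316 and 319.6 (deep) (log2 2.07 ± 0.11, adjusted p = 4.1e-09).

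The first set of capitals in Scg2 is the cAMP response element. It stood in 3.24% of all promoters, 2.97% of those of higher genes and 3.53% of those of lower genes. Among genes lower by 32-fold or more it stood in 4.84% (30 of 620). It stood in 4 of 17 (23.5%) of the neuropeptide and granin promoters, but in 0 of 17 vesicle machinery promoters and 0 of 18 astrocyte marker promoters. The other 3 neuropeptide and granin promoters that held it were those of Sst, which encodes somatostatin, Chgb, chromogranin B, and Pcsk1. They are shown beside Scg2 as the members of 1 list that hold it. They were chosen after these values were seen. They lie at chr16:23890845-23890937 (minus strand), chr2:132781525-132781622 and chr13:75089734-75089831 (both plus).
Sst: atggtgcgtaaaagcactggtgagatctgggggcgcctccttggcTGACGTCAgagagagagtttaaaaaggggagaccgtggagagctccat
Chgb: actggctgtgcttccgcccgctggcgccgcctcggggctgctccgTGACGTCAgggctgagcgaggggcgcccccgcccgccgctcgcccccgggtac
Pcsk1: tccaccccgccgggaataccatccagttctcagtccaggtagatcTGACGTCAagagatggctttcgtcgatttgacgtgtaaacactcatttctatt

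In these 4 promoters the motif began between positions -78 and -48 relative to the start. The motif also lay in that window in Pax6, a transcription factor gene called higher (2.39), and in the tubulin gene Tubb2a, which was not called (-0.05). Sst was 1.1 to 24.1 in astrocytes and 1726 to 4892 in bulk tissue, and Chgb 27 to 124 against 10017 to 14529. All 4 genes were lower, with log2 differences of -7.22 for Chgb, -8.75 for Sst, -7.98 for Pcsk1 and -5.14 for Scg2.

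The sterol motif stood in 0.710% of all promoters, 0.689% of those of higher genes and 0.788% of those of lower genes. Among genes lower by 32-fold or more it stood in 0.645% (4 of 620). Of 11 cholesterol synthesis promoters 1 held it, that of Hmgcs1, the synthase at the entry to the pathway. Hmgcs1 was 9646 to 15025 in astrocytes and 4595 to 6042 in bulk tissue (log2 1.17 ± 0.14, uncertain because of exon overlap). Of 17 vesicle machinery promoters 2 held it, those of Syt1 and of the vesicle GTPase gene Rab3a, which were lower. Acsl1, an acyl-CoA synthetase gene named above among the lower ones, held it too. The 4 stretches are set side by side to show the same letters near a gene that was higher (Hmgcs1, chosen after its values were seen) and near genes that were lower. They lie at chr13:119690169-119690267 (plus strand), chr10:109011127-109011225 (minus), chr8:70755050-70755103 (plus) and chr8:46490845-46490943 (plus).
Hmgcs1: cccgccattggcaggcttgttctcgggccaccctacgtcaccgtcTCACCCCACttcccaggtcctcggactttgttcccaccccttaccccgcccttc
Syt1: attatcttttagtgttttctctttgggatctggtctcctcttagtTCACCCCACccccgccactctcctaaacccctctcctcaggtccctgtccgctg
Rab3a: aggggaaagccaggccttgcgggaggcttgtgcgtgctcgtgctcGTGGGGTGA
Acsl1: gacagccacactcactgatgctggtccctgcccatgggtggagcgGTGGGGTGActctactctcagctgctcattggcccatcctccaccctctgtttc

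Members of the neuronal factor and marker lists were lower with few exceptions. Of 24 neuronal transcription and splicing factors, 22 were lower and 2 higher (median -5.29). The higher ones were Rest, the repressor gene described above, and the splicing factor gene Nova1 (0.54 ± 0.14). Rbfox1, a neuronal splicing factor, was 26 to 57.3 against 8658 to 14235, and Celf4 111 to 217 against 7520.1 to 8938. Of 14 excitatory neuron markers, 12 were lower and 1 higher (median -6.70). Their summed level was 2.02% to 2.37% of the bulk mean in astrocytes and 2.27% to 4.89% in the GFP-negative cells. All 15 interneuron markers were lower (median -6.01, or -6.35 with Dlx2, Dlx5 and Slc32a1, at 0 in every astrocyte library, set at their bounds). Dlx1 was 2.84 to 12.4 in astrocytes and 335 to 627 in bulk tissue.

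Pairs of genes of the same broad class, 1 known from glia and 1 from neurons, moved apart. Not all pairs are relatives by sequence or do the same task. Of 18 autosomal pairs, 16 had the first member called higher and the second called lower, and in all 18 the log2 ratio of the first to the second was higher in astrocytes. The pairs had been chosen for known glial and neuronal use, so their direction follows from that choice and only the sizes are described. For the bicarbonate transporters Slc4a4 and Slc4a10 the log2 ratio was 12.31 to 14.31 in astrocyte libraries and 1.11 to 1.39 in bulk libraries, a shift of 12.04 ± 0.45 (SE). Per kilobase of exon, the mean normalised counts were 8159 for Slc4a4 and 1.42 for Slc4a10 in astrocytes, and 994 and 709 in bulk tissue. The shift was 12.71 ± 0.67 for the zinc transporters Slc39a12 and Slc30a3, which are of different families. It was 11.23 ± 0.39 for the glutamate receptors Grm3 and Grm2 and 11.07 ± 0.33 for the connexins Gja1 and Gjd2. Among pairs of metabolic genes the shift was 9.30 ± 0.55 for the fatty acid binding proteins Fabp7 and Fabp3, 6.91 ± 0.26 for the monocarboxylate transporters Slc16a1 and Slc16a7, 6.16 ± 0.26 for the enolases Eno1 and Eno2, 4.46 ± 0.24 for the glucose transporters Slc2a1 and Slc2a3, 3.93 ± 0.15 for the carnitine acyltransferases Cpt1a and Cpt1c, and 3.08 ± 0.16 for the aldolases Aldoc and Aldoa. The aldolases had the smallest shift of the 18 pairs. In the other 2 pairs Slc16a1 and Sox11 were not called, while their partners were.

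**Figure D4:**
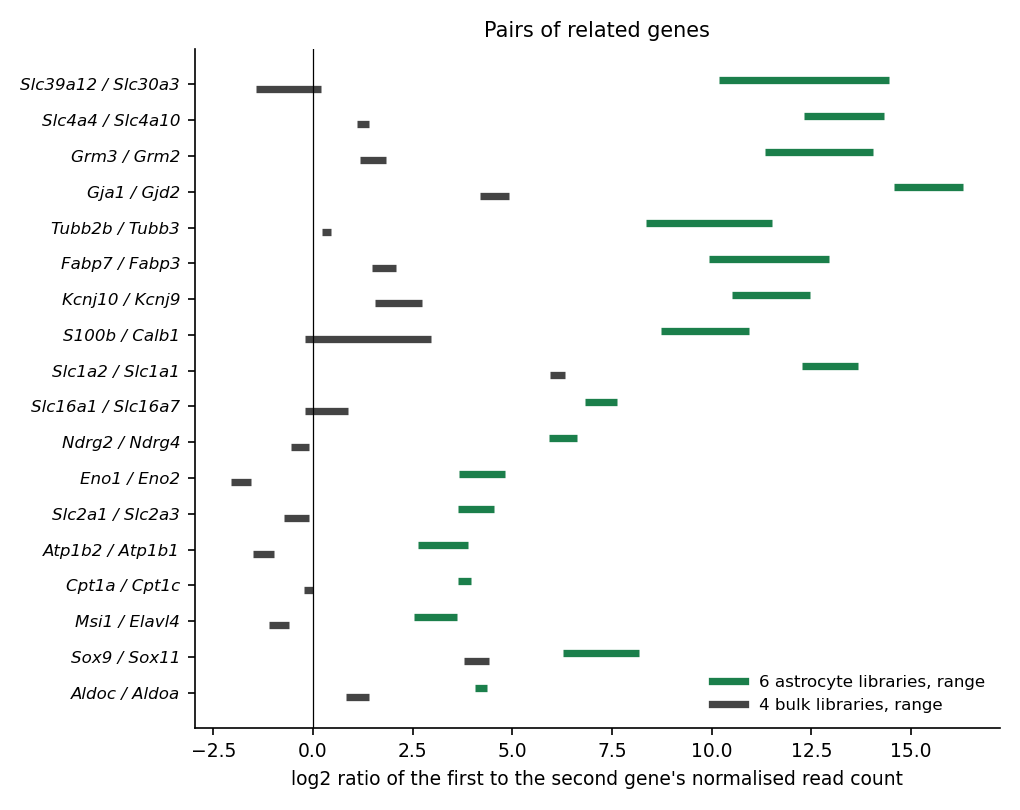
Range over libraries of the log2 ratio of the first to the second gene of 18 autosomal pairs, for 6 astrocyte (green) and 4 bulk (grey) libraries, ordered by the shift between fractions. The ranges are apart in every pair, from a shift of 3.08 for Aldoc and Aldoa to 12.71 for Slc39a12 and Slc30a3.

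Markers of other cells were present in the astrocyte libraries at levels that differed by list, from a few percent of the bulk mean to above it. Myelin genes summed to 5.59% to 8.68% of the bulk mean, with 13 of 15 lower. The bulk libraries themselves ranged widely for this list, from 44.7% to 164% of that mean. Mbp, the main myelin basic protein gene, was 335 to 1155 against 19669 to 76246. Aspa, which breaks down N-acetylaspartate, and the receptor gene Gpr37 went the other way, at 1.98 ± 0.19 and 0.65 ± 0.20. Oligodendrocyte precursor genes summed to 39.3% to 62.8%, and 8 of 11 autosomal members in the table were lower (median log2 difference -2.61). A sum weighs abundant members most, here also Olig2, which was higher. Olig2, a transcription factor of the lineage, was 1031 to 1832 in astrocytes and 343 to 637 in bulk tissue (log2 1.42 ± 0.18), and Nkx2-2 was higher by 1.55. Sox10, which the lineage requires, was 7.64 to 216 against 452 to 894.

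Microglial genes summed to 16% to 40% of the bulk mean in astrocyte libraries, and 15 of 16 were lower (median -2.14). Cx3cr1, the fractalkine receptor, was 265 to 549 in astrocytes and 1481 to 1679 in bulk tissue, and the defining gene Tmem119 63.8 to 244 against 535 to 808. Endothelial genes summed to 11.4% to 22.3%, with all 12 lower (median -2.93). Mural cell genes summed to 56.3% to 95.1%, with 9 of 12 lower and 3 higher (median -1.42). The abundant higher members Pdgfrb and Notch3 are part of that sum, so it overstates the level of the other members. Notch3 was among the higher ones, at 1079 to 1809 against 244 to 290.5 (log2 2.41 ± 0.16), along with Pdgfrb and Tagln (0.78, uncertain because of exon overlap). Fibroblast genes summed to 30.2% to 45.6% (8 of 10 lower) and red blood cell genes to 2.57% to 19.7%, the latter uncertain because the globin genes are near-identical copies. Bulk libraries themselves held 23.2% to 172% of their mean for the red blood cell list. In the 4 libraries of GFP-negative cells the microglial list stood at 1937% to 2749.6% of the bulk mean, the endothelial list at 671% to 928% and the mural list at 2282% to 2983%. The part of these cells in the astrocyte values was not tested. Of ependymal genes 1 of 6 tested was higher (Rarres2, 1.56, uncertain because of exon overlap), and the list summed to 138% to 204% of the bulk mean in astrocytes, 89.5% to 117% in bulk tissue and 156% to 187% in GFP-negative cells. Of 10 autosomal neuroblast and progenitor genes 6 were lower and none higher.

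**Figure D5:**
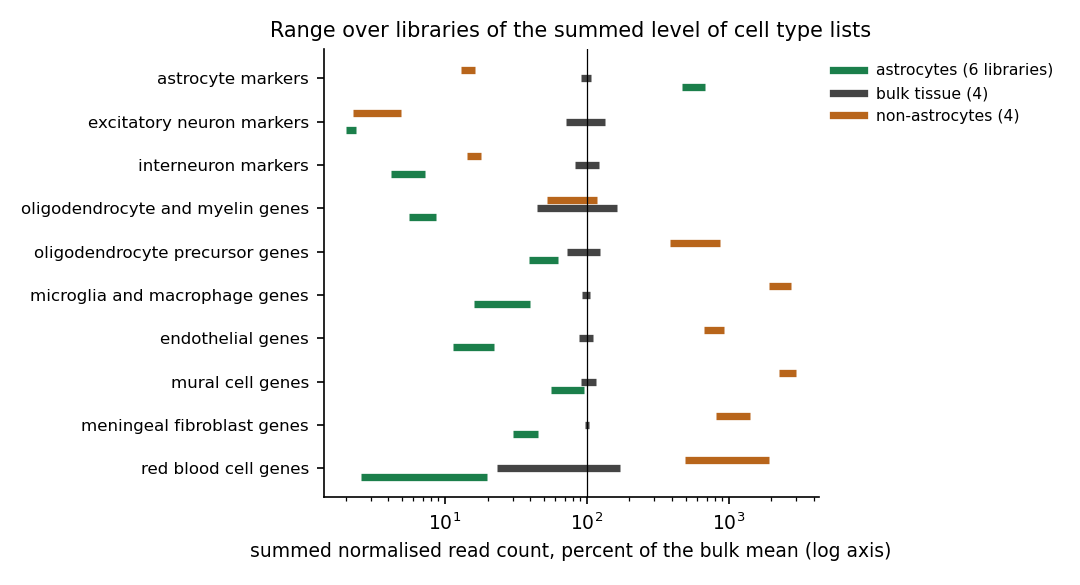
Range over libraries of the summed normalised read count of 10 cell type lists, as a percent of the bulk mean (log axis), in astrocytes, bulk tissue and GFP-negative cells (non-astrocytes). Of these 10 lists only the astrocyte list is above bulk tissue in astrocyte libraries, at 469% to 680%. The microglial, mural, fibroblast and red blood cell lists reach over 1000% in GFP-negative cells.

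Genes that respond to neuronal firing were lower. Of 15, 12 were lower and 1 higher (median -5.08). Arc, a synaptic immediate early gene, was 1.91 to 19 in astrocytes and 4508 to 6699 in bulk tissue. The higher one was Nptx2, a pentraxin, at 350.0 to 1506 against 333 to 559.9 (log2 0.81 ± 0.31, adjusted p = 0.0336), with overlapping libraries. Of 20 genes known to respond to cell dissociation, 12 were lower and 2 higher (median -1.07). Egr1, which firing also induces, was 401 to 625 in astrocytes and 16408 to 29078 in bulk tissue, and Fos 70.9 to 133 against 429.6 to 548. Zfp36, which destabilises cytokine messages, was higher (2.05 ± 0.17), as was the heat shock gene Hspa1a (0.91 ± 0.31, adjusted p = 0.0207, uncertain because of exon overlap). In GFP-negative cells, dissociated in the same way, the list summed to 98.4% to 116% of the bulk mean, and in astrocytes to 25.7% to 41.2%. These sums include Egr1, so they do not measure a response to dissociation alone, and the cause of the difference was not tested. Reactive astrocyte genes were 8 higher and 8 lower of 19 autosomal genes tested (median 0.07). Ptx3, a long pentraxin, was 93.6 to 166 against 2 to 16.4 (log2 4.24 ± 0.40) and Cd44, a hyaluronan receptor, 659.7 to 1471 against 106 to 175, while Vim (-0.96) and S1pr3 (-1.80) were lower.

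Energy genes had small differences. Of 13 genes on the mitochondrial genome 3 were lower and none higher (median -0.29), and without the second deep layer astrocyte library, whose mitochondrial share stood apart, 11 were lower. The 3 were mt-Nd3 (-0.94), mt-Co3 (-0.88) and mt-Co2 (-0.63 ± 0.24, adjusted p = 0.037). Of 19 autosomal respiratory chain genes 9 were lower and 3 higher (median -0.32), with Cox6a1 lowest at -1.60.

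Further classes were examined after their values were seen. Of 87 autosomal genes for cytosolic ribosomal proteins, 77 were lower and 5 higher (median -0.89). Their reads can be shared with processed copies, so single members are uncertain. Long intergenic non-coding RNA genes leaned the other way, with 262 of 703 higher and 147 lower (median 0.28), and antisense genes too, with 382 of 1046 higher and 232 lower (median 0.35), the latter uncertain because no source used here says whether strand was used in the counting. The nuclear non-coding RNAs Malat1 and Neat1 were higher, at log2 1.97 ± 0.14 and 3.57 ± 0.22.

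Few genes were called for an astrocyte to bulk difference that depended on layer. With 2 bulk libraries per layer, a gene that was not called is not thereby shown to be alike in both layers. By the interaction of fraction and layer, 21 of 20207 autosomal genes passed (0.104%) in limma, and 2029 had an unadjusted p below 0.05. The count was 114 without the second deep layer astrocyte library and 0 without any 1 of the 4 bulk libraries, where 1256 to 1711 genes had an unadjusted p below 0.05. The listed genes among the 21 were Tle4, Foxp2 and Crym, known as markers of deep layer neurons. Tle4, a corepressor, was 2782, 2986 and 2716 (upper layers) and 2673, 3111 and 2884 (deep layers) in astrocytes. In bulk tissue it was 628 and 606 (upper) and 2452 and 2006 (deep). The 6 astrocyte values lay close together, while the deep bulk values were above the upper ones. The log2 difference was 2.19 in upper and 0.38 in deep layers. Tle4 was the 1 excitatory marker called higher. At Aqp4, F3, Hif3a and Il18 the interaction had adjusted p values of 0.804, 0.956, 0.925 and 0.957.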

How the data were processed

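RNA was amplified with the NuGEN RNA-Seq V2 kit and sequenced as single-end reads, per the labels' protocols. The submitters' processing notes name HTSeq 0.6.1p1, TopHat2 2.0.11, DESeq2, CASAVA and the build GRCm38, and give no settings, so whether counting used strand is unknown. The authors deposited 1 signal per gene and library, which is a read count divided by a size factor: dividing by the value of 1 read gave whole reads for 100% of values in every library.

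The 10 libraries were fitted with limma 3.58.1 (R 4.3.3) on log2(value + 1) with layer and fraction as terms, intensity trend and robust moderation. Genes needed a value of 10 in at least 2 libraries, and p-values were adjusted by Benjamini-Hochberg over 21657 genes, with calls below 0.05. A log2 difference on this scale understates the change of low genes. edgeR 4.0.16 and DESeq2 1.42.0 on recovered reads, other pseudocounts, filters and scalings, single layers and leaving out each library were alternatives. Upper and deep layer astrocyte libraries of the same number deviated together from their group means (r of 0.154 to 0.220). Deviations within a group sum to 0, so the values below 0 for other numbers largely follow from that. With 2 bulk libraries per layer, r was 0.0989 for the same number and its mirror value for the other, which cannot decide on pairing. The astrocyte layers thus seem paired by number, which the labels do not state. The main fit treats the 10 libraries as independent. If layers are paired, there are fewer independent units than libraries, and the p-values may be too small. Only the limma fit with layer and fraction was run on simulated counts, with independent libraries and few genes changed, equally up and down. Most genes were called in these data, so that run does not show how the fit behaves here. Genes were named by rule: the 20 largest differences per direction among called, non-overlapping genes of mean log2 CPM 5 or more, up to 4 members of smallest p per list, members called against their list, both members of each pair, and 7 markers. Other list members named were chosen after their values were seen. The members and gene lists were chosen with earlier results of these data known. Gene positions came from GENCODE M21, and exon overlaps of 10% or more were marked as uncertain. Some items that the rule names are not reported here, and list counts include all tested members.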

Additional observations from a re-analysis of the deposited data

Results flagged for a closer look

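The difference between astrocytes and bulk tissue was not the same in upper and deep layers for 3 listed genes, by the interaction of fraction and layer in limma. For Crym, a thyroid hormone-binding protein gene, the upper layer difference exceeded the deep layer one by 6.37 on the log2 scale (adjusted p = 0.0327). Crym was 26.7, 39.2 and 23.1 (upper layers) and 23.6, 2.84 and 8.46 (deep layers) in astrocytes. Deep layer bulk tissue held 264 and 355 and upper layer bulk tissue at most 15.7, so the deep bulk values stood above the other 8 libraries. For Foxp2, a forkhead transcription factor of deep layer neurons, the upper layer difference exceeded the deep one by 3.44 (adjusted p = 0.028). Foxp2 was 38.3 to 80.4 over the 6 astrocyte libraries. Bulk tissue held 48.8 and 67.1 (upper) and 727 and 449.9 (deep), again with the deep values highest. For Tle4 the upper layer difference exceeded the deep one by 1.82 (adjusted p = 0.00965). Without any 1 of the 4 bulk libraries none of the 3 passed, with adjusted p values from 0.058 for Tle4 to 0.296 for Foxp2. Without 1 upper layer astrocyte library Crym had adjusted p values of 0.0742 to 0.108 and Foxp2 of 0.0558 to 0.108, and without the third deep layer astrocyte library Crym had 0.0511. With library totals Crym had 0.0604 and Foxp2 0.0679, and with the replicate block Crym had 0.0579. Tle4 passed under these settings.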

How the results depend on the processing

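The 13664 autosomal calls became 12585 to 14128 when 1 library was left out, 11814 in upper layers alone, 10441 in deep layers alone, and 11400 without the 2 bulk libraries low in Y-linked transcripts (chosen after seeing the data). Scaling to library totals moved the median of all genes by 0.18 and the share of calls that were higher from 45.5% to 53.2% (7182 higher, 6328 lower), and edgeR gave 6662 higher and 7056 lower. DESeq2 gave 13788 calls.

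Of 6530 values of named genes under 24 alternatives, 0 reversed, 124 lost and 5 gained their call. Many of these genes were named for a large difference or a small p in these same libraries, so reversals were unlikely from the start. With a value of 10 required in at least 6 libraries, which removes genes absent from astrocytes, lower calls were 5 for GABA and glycine receptors, 8 for neuropeptides, 7 for interneuron markers and 2 for neuroblast genes, and the complement list had a median of 0.50. Library totals gave 5 lower respiratory chain genes, and upper layers alone 2 higher ependymal genes. Lower mitochondrially encoded genes numbered 7 in upper layers alone, 1 in deep layers alone, 1 without the bulk libraries low in Y-linked transcripts and 2 to 11 with 1 library left out, 11 without the second deep layer astrocyte library. The median of reactive astrocyte genes was -0.0511 with DESeq2 and -0.24 to 0.36 with 1 library left out. Genes that differed by layer numbered 46 with a pseudocount of 4, 13 with library totals and 0 to 114 with 1 library left out. Where no cause is named, the cause was not tested.

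With the replicate number as a replicate block, 13425 genes were called (6070 higher, 7355 lower) and 25 differed by layer. The block also joins astrocyte and bulk libraries of the same number, so it does not model pairing of layers within a fraction alone. Same-numbered astrocyte and bulk libraries did not deviate together (r from -0.01 to 0.05), so the numbers were not taken as pairs between fractions. Among the 3 listed genes that differed by layer, the block ended the call of Crym (adjusted p = 0.0579).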
